A study of Mus musculus with 21 samples.

Results

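The genes described here are 7 genes tied to the pacemaker and relay cells of the gut muscle layer: Kit, Ano1 and Etv1 of the interstitial cells of Cajal, Kitl, whose product the neighbouring cells supply to KIT, and Pdgfra, Kcnn3 and P2ry1 of the PDGFRA-positive interstitial cells. They were taken by gene symbol from a count table of 24062 genes, and all 7 were among the 15936 genes tested. The libraries came from colon of C57BL/6 mice, 3 in each of 7 groups: normal colon and AOM/DSS tumours of wild-type males, of App NL-G-F knock-in males and of wild-type females, and normal colon of knock-in females. App NL-G-F is a form of App, which encodes the amyloid precursor protein, with mutations tied to familial Alzheimer's disease, and AOM/DSS joins the carcinogen azoxymethane with dextran sulfate sodium, an agent that injures the colon lining. A knock-in female tumour group was not analysed here. The labels mark the normal libraries as without treatment, whereas the series describes normal tissue beside tumours or colon in which none had formed, so the state of exposure of the normal tissue is not certain. Ages are not given, and the labels do not say whether libraries of a group are separate animals, so p-values measure the spread between these libraries.

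Interstitial cells of Cajal generate the electrical slow waves that pace gut contraction, and they need signalling through the receptor tyrosine kinase KIT to survive. Calcium release in these cells opens the chloride channel ANO1, whose current depolarises the electrically coupled smooth muscle. PDGFRA-positive cells lie beside them and relay inhibition: purines from enteric nerves act on the receptor P2Y1, and calcium then opens the small-conductance potassium channel encoded by Kcnn3. None of the 7 genes is confined to these cells. Mast cells and crypt secretory cells also carry KIT, epithelia also use ANO1, and fibroblasts under the epithelium carry PDGFRA. In bulk tissue, fewer cells of a type and less RNA per cell cannot be told apart.

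The libraries held from 3414123 to 26174008 counts, the smallest being wild-type male tumour replicate 2. Levels are given as CPM, counts scaled to the library total with TMM factors, and 3 counts, taken as the floor, correspond to between 0.127 and 0.873 CPM. Replicate libraries always differed by more than counting noise, with a chi-square per degree of freedom of at least 6.97. The summed level of 12 smooth muscle markers ran from 2351 to 11496 CPM in normal colon and from 287 to 1345 CPM in tumours, so that the tumour libraries held little muscle RNA beside the normal ones. A gene was called when its adjusted p was under 0.05 in the quasi-likelihood test of edgeR, adjusted by Benjamini-Hochberg over all tested genes.

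On GRCm38 the genes lie at chr5:75574916-75656722 (Kit, plus strand), chr10:100015630-100100416 (Kitl, plus), chr7:144588549-144751974 (Ano1, minus), chr12:38779380-38870484 (Etv1, plus), chr5:75152292-75198215 (Pdgfra, plus), chr3:89520164-89675132 (Kcnn3, plus) and chr3:61002795-61008982 (P2ry1, plus), by the GENCODE M21 annotation. Pdgfra and Kit are neighbours on chromosome 5, with 377 kb and 0 protein-coding genes between them. Some exonic bases are shared with other annotated genes: 456 of the 10024 exonic bases of Pdgfra with Gm42802, 166 with Gm42803 and 30 with Mir7025, and 992 of 4291 of P2ry1 with the antisense gene Gm37035. The strand setting of the counting is not given in the sources used here, so reads of opposite-strand neighbours cannot be told apart from those of Pdgfra and P2ry1. The antisense gene Gm44930 lies within Ano1 and shares 0 exonic bases with it.

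The 250 bases before the first listed RefSeq start (GRCm38.p6) are shown for 5 of the genes: the neighbours Kit and Pdgfra, whose fold changes had opposite signs in each tumour comparison, Etv1 and Kcnn3, whose levels fell most in wild-type tumours, and Kitl, which alone held motifs that were searched.
Kit, chr5:75574737-75574986, plus strand: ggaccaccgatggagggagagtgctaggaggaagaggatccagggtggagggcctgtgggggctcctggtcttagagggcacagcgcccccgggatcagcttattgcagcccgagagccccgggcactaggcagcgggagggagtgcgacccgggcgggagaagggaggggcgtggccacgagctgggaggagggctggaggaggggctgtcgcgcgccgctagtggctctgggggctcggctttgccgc
Pdgfra, chr5:75152001-75152250, plus strand: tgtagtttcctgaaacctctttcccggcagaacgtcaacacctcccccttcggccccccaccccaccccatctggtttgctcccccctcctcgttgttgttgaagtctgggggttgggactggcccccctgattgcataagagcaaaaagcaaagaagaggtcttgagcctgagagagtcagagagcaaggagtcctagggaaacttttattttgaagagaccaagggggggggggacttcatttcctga
Etv1, chr12:38779832-38780081, plus strand: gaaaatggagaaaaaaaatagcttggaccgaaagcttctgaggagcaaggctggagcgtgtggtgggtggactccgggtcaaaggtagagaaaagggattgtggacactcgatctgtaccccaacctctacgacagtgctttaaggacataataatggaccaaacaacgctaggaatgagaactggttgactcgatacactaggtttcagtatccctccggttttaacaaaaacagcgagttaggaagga
Kcnn3, chr3:89519914-89520163, plus strand: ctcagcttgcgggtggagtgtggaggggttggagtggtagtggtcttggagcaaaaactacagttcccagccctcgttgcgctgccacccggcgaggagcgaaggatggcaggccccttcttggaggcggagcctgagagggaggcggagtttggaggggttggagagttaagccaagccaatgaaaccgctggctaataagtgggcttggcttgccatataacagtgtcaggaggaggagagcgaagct
Kitl, chr10:100015571-100015820, plus strand: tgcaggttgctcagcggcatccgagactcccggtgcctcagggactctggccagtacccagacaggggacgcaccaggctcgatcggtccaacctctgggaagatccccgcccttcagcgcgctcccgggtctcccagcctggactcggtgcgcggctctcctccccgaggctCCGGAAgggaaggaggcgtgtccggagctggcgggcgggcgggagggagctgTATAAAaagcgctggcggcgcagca
Capitals mark matches, on either strand, to TATAAA (the TATA box), CCGGAA (a core bound by ETS factors, the family of ETV1) or the CArG box (the element bound by serum response factor in muscle genes). None of these motifs overlaps another in the windows shown. Only Kitl of the 7 genes had a match, with TATAAA 25 to 20 bases and CCGGAA 77 to 72 bases before its start. Over all 32851 RefSeq windows of the same length, 12.4% held TATAAA, 12% CCGGAA and 1.47% a CArG box. The Kit window held 17 CpG dinucleotides at 70.8% GC and the Kitl window 23 at 69.2%, against a median of 6 and 52.4% over all windows. The Pdgfra window held 4 at 54.4%, that of Etv1 9 at 46.4% and that of Kcnn3 10 at 58.8%. A match to these letters describes the sequence and no site or binding was measured. Kit and Etv1 each have 2 listed RefSeq starts, of which the first was used. By the GENCODE coordinates the Etv1 window lies inside the gene, and the Kit and Kitl windows reach past the annotated gene starts.

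Per kb of exonic sequence, which allows levels of different genes to be compared, the chloride channel gene Ano1 was the most abundant of the 7 in wild-type male normal colon, at 70.3 ± 15.2 CPM per kb (SD, n = 3). The ligand gene Kitl followed at 27.5 ± 1.69, then Pdgfra at 13.0 ± 1.60, P2ry1 at 10.5 ± 2.34 and Kit at 8.55 ± 1.66 CPM per kb. Kcnn3 and Etv1 were about an order lower, at 1.22 ± 0.414 and 0.782 ± 0.0704 CPM per kb. The level of P2ry1 overlapped those of Pdgfra and Kit within 1 SD.

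**Figure D1:**
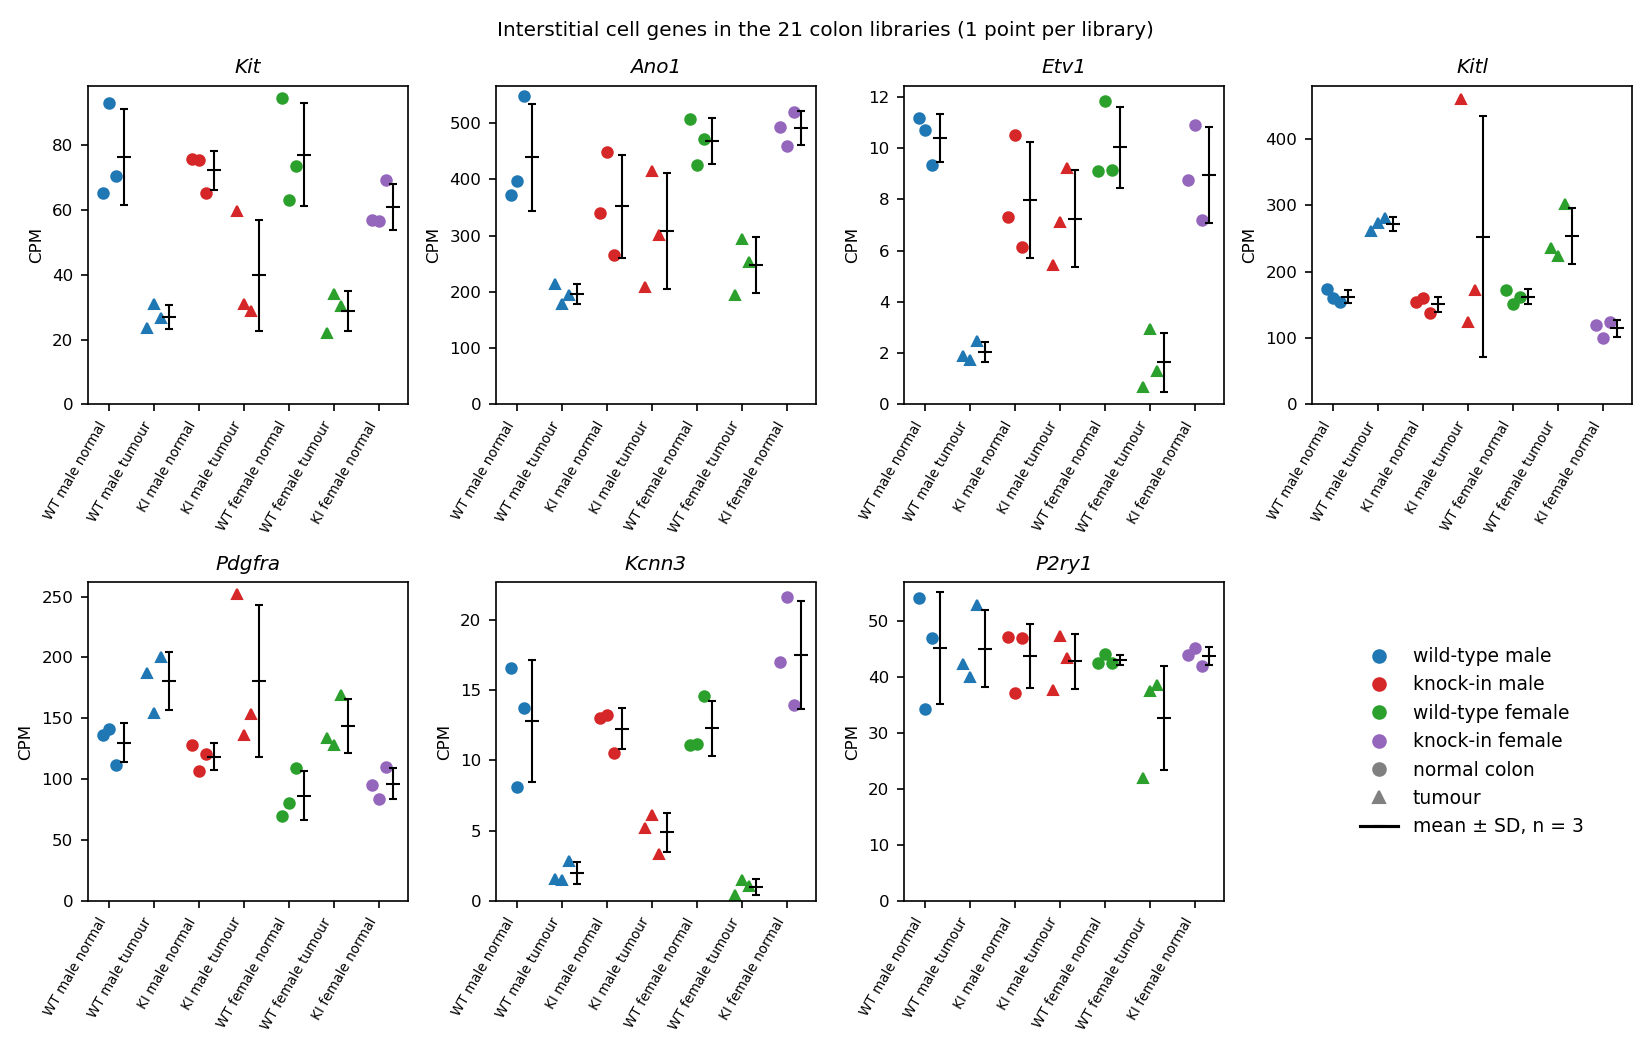
CPM of the 7 genes (y axis, from 0) in the 7 groups (x axis), with 1 point per library, circles for normal colon and triangles for tumours, and a bar for mean ± SD of 3 libraries. Kit, Etv1 and Kcnn3 sit lower in the wild-type tumours than in any normal library. Etv1 of knock-in male tumours (5.44 to 9.20 CPM) overlaps the normal libraries, the lowest of which is at 6.14 CPM. A single knock-in male tumour library lies far above the others for Kitl (459.8 CPM).

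In tumours of wild-type males, 4 of the 7 genes were called lower and 0 higher, against 35.7% of all tested genes called in either direction. The 4 were Kit, Ano1, Etv1 and Kcnn3. In tumours of wild-type females the same 4 genes were called lower and Pdgfra higher, 5 of 7 against a background of 49.1%. Knock-in male tumours had 3 calls, Kit and Kcnn3 lower and Pdgfra higher, against 20.4% of all tested genes. The median log2 fold change of the 7 genes was -1.16, -0.92 and -0.15 in wild-type males, wild-type females and knock-in males, beside 0.01 over all tested genes in each. These 3 comparisons use different libraries, and the 7 genes were chosen with results of these data known.

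KIT is the receptor that the pacemaker cells depend on. Kit stood at 65.3, 93.0 and 70.3 CPM in the wild-type male normal libraries and at 23.4, 30.8 and 26.7 in the tumours. In wild-type females the levels were 94.5, 63.1 and 73.4 CPM in normal colon and 21.9, 34.0 and 30.4 in tumours. Neither sex showed any overlap, and the fits gave 2.85-fold lower Kit in male tumours (log2 fold change -1.51 with SE 0.24, adjusted p = 0.000177 by edgeR) and 2.68-fold lower Kit in female tumours (-1.42, SE 0.24, adjusted p = 0.000107). In knock-in males Kit was at 75.8, 75.5 and 65.1 CPM in normal colon and at 59.6, 30.9 and 28.9 in tumours. The groups again did not overlap, but tumour replicate 1 lay close to the normal libraries. The fitted change was smaller, 1.81-fold lower (-0.86, SE 0.24, edgeR adjusted p = 0.0183), and it missed the threshold without tumour replicate 2 (adjusted p = 0.0713), without replicate 3 (0.0717) and when only the 2 groups compared were fitted (0.102). Normal colon of knock-in females held 56.8, 56.5 and 69.1 CPM. Ordered by mean, Kit ran from 77 ± 16.0 CPM in wild-type female normal colon through 76.2 ± 14.8, 72.1 ± 6.08 and 60.8 ± 7.18 in wild-type male, knock-in male and knock-in female normal colon (SD, n = 3 each). Tumours followed at 39.8 ± 17.1 (knock-in male), 28.8 ± 6.25 (wild-type female) and 27.0 ± 3.73 CPM (wild-type male). Each group in this order overlapped the next.

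Mast cells carry KIT as well. The summed level of their markers was higher without overlap in wild-type female tumours and overlapped in both male genotypes. The summed level of 10 mast cell genes was 9.85 to 48.1 CPM in wild-type male normal colon and 44.6 to 119 in the tumours, and 6.04 to 9.17 against 32.2 to 62.9 in wild-type females. In knock-in males it was 13.9 to 21.9 CPM in normal colon and 11.2 to 34.2 in tumours. Of the 9 mast cell genes tested, 1 was called higher in wild-type male tumours, 4 in wild-type female tumours and 0 in knock-in male tumours. The genes called in females included Hdc, which makes histamine (log2 fold change 4.32), and the mast cell protease gene Mcpt1 (3.28). Hdc was the gene called in males (3.22). Their part in the Kit values was not tested.

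Kitl encodes the ligand of KIT, which smooth muscle, fibroblasts and epithelium make. In wild-type males it was at 173, 160.2 and 154 CPM in normal colon and at 261, 273 and 281 in tumours. Wild-type female levels were 173, 151 and 162 CPM in normal colon and 236, 223 and 301 in tumours. In both sexes every tumour library lay above every normal library, yet Kitl did not pass the test: the fitted log2 fold changes were 0.74 (SE 0.30, edgeR adjusted p = 0.0670) and 0.64 (SE 0.30, adjusted p = 0.0899). For each gene the fit estimated 1 spread over all 21 libraries. That of the knock-in male tumours, with an SD of 181 CPM, therefore entered both tests. Fitted with only the groups compared, the rises of both sexes were called, with edgeR adjusted p = 0.00206 in males and 0.00355 in females. Both were also called with the GC and length offset (0.0139 and 0.0239), the males by DESeq2 (0.0366) and the females with library totals (0.0441). Tumours of knock-in males stood at 459.8, 125 and 172 CPM against 154, 161 and 138 in their normal colon. The fitted log2 change of 0.74 with SE 0.30 (adjusted p = 0.0906 by edgeR) was -0.07 (adjusted p = 0.774) without tumour replicate 1, and it was called without replicate 2 (1.03, adjusted p = 0.0163) and without replicate 3 (0.95, adjusted p = 0.04999). Knock-in female normal colon was lowest, at 119, 99.9 and 124 CPM, below every library of wild-type female normal colon, with a fitted log2 change of -0.50 with SE 0.30 (adjusted p = 0.278). That difference was called only where the 2 groups were fitted alone (-0.51, edgeR adjusted p = 0.0167). The means ran from 272 ± 10.2, 253 ± 42.2 and 252 ± 181 CPM in wild-type male, wild-type female and knock-in male tumours to 162 ± 9.98, 162 ± 11.2 and 151 ± 11.5 in wild-type male, wild-type female and knock-in male normal colon, and 114 ± 12.8 in knock-in females (SD, n = 3 each). The wild-type tumours overlapped no normal group and knock-in females overlapped no other group, whereas the knock-in male tumours were spread across both.

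ANO1 is the calcium-activated chloride channel that carries the pacemaker current. Ano1 stood at 373, 397 and 548 CPM in wild-type male normal colon and at 214, 179 and 194 in the tumours. The wild-type female libraries held 508, 426 and 472 CPM in normal colon and 195, 294 and 253 in tumours. Without overlap in either sex, Ano1 fell 2.24-fold in males (log2 fold change -1.16 with SE 0.22, adjusted p = 0.000703 by edgeR) and 1.89-fold in females (-0.92, SE 0.22, adjusted p = 0.00215). In knock-in males the normal libraries held 341, 449.6 and 266 CPM and the tumours 209, 415 and 302. These groups overlapped, and the log2 fold change of -0.19 had a 95% interval, here as elsewhere from the standard error by the normal distribution, of -0.62 to 0.24 (edgeR adjusted p = 0.558). Knock-in female normal colon held 494, 459 and 520.4 CPM, above every library of knock-in male normal colon (log2 fold change 0.48 with SE 0.22, adjusted p = 0.307). Ordered by mean, normal colon ran from 491 ± 30.6 CPM in knock-in females through 469 ± 41.0 and 439 ± 94.8 in wild-type females and males to 352 ± 92.1 in knock-in males, and tumours from 309 ± 103 in knock-in males through 247 ± 49.5 in wild-type females to 196 ± 17.7 in wild-type males (SD, n = 3 each). Every neighbour in this order overlapped the next.

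ETV1 is an ETS family transcription factor that the pacemaker cells hold at high level and that acts downstream of KIT. Etv1 was at 11.1, 10.7 and 9.35 CPM in wild-type male normal colon and at 1.87, 1.75 and 2.49 in the tumours. The wild-type female libraries were at 9.09, 11.8 and 9.14 CPM in normal colon and at 0.679, 2.92 and 1.30 in tumours, the lowest of these resting on 5 counts. Etv1 was 5.0-fold lower in the male tumours (log2 fold change -2.32 with SE 0.35, adjusted p = 9.45e-05 by edgeR) and 6.01-fold lower in the female tumours (-2.59, SE 0.36, adjusted p = 1.40e-05). The knock-in male libraries were at 7.29, 10.5 and 6.14 CPM in normal colon and at 5.44, 7.10 and 9.20 in tumours. Here the groups overlapped and the log2 fold change was -0.15 (SE 0.31, edgeR adjusted p = 0.766). By mean the groups ran from 10.4 ± 0.936, 10.0 ± 1.58, 8.95 ± 1.86 and 7.98 ± 2.27 CPM in wild-type male, wild-type female, knock-in female and knock-in male normal colon to 7.25 ± 1.88 in knock-in male tumours, all overlapping their neighbours, and then, after a gap, 2.04 ± 0.396 and 1.64 ± 1.16 CPM in wild-type male and female tumours (SD, n = 3 each).

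PDGFRA is the receptor for platelet-derived growth factors that names the relay cells. Pdgfra stood at 137, 142 and 112 CPM in wild-type male normal colon and at 187, 155 and 201 in the tumours. In wild-type females it stood at 70.0, 80.6 and 109 CPM in normal colon and at 134, 128 and 169 in tumours. Every tumour library was above every normal one in each sex. The rise was called in females (log2 fold change 0.74 with SE 0.21, adjusted p = 0.00606 by edgeR) and not in males (0.48, SE 0.20, adjusted p = 0.0745), where it was called with only the compared groups (0.0329) and with the GC and length offset (0.0191). The difference between the sexes was 0.26 (SE 0.29, adjusted p = 0.774). In knock-in males Pdgfra was at 128, 106 and 120.3 CPM in normal colon and at 252, 137 and 154 in tumours. That rise of 0.61 (SE 0.20) was called (edgeR adjusted p = 0.0404), but it was 0.25 (adjusted p = 0.354) without tumour replicate 1, and the call was also lost without normal replicate 1, 2 or 3 (adjusted p = 0.0743, 0.148 and 0.10). It was lost too with the replicate block (adjusted p = 0.0732), with the same 18 numbered libraries and no block (0.0700), with only the compared groups (0.146), without the low-count filter (0.0514) and with a covariate for the 3 libraries numbered 152 and above (0.0505). Knock-in female normal colon held 95.5, 84.1 and 109.7 CPM. In wild-type normal colon, every female library lay below every male one, with a fitted log2 change of -0.59 with SE 0.20 (adjusted p = 0.0563 by edgeR). This was called with a mean of at least 50 counts (0.0493), with library totals (0.0479) and by DESeq2 (0.0303), and without wild-type female normal replicate 3 (0.0214) or male normal replicate 3 (0.0415). Ordered by mean, tumours stood at 181 ± 62.5, 181 ± 23.7 and 144 ± 22.2 CPM in knock-in males, wild-type males and wild-type females, and normal colon at 129.9 ± 16.0, 118 ± 11.1, 96.4 ± 12.8 and 86.5 ± 20.2 in wild-type males, knock-in males, knock-in females and wild-type females (SD, n = 3 each), each overlapping the next.

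Fibroblasts that lie under the epithelium carry much PDGFRA, and the summed level of their markers was higher in tumours. The summed level of 7 such genes was 154 to 235 CPM in wild-type male normal colon and 318 to 361 in tumours, 106 to 131 against 346 to 413 in wild-type females, and 164 to 242 against 307 to 357 in knock-in males. In wild-type males 4 of the 7 were called higher and 0 lower, among them Foxl1, a transcription factor of these cells (log2 fold change 1.88), and Bmp7 (1.74), a secreted growth factor. In wild-type females 6 were called higher and 1 lower, with Bmp7 at 4.70 and Foxl1 at 3.99. Knock-in males had 2 called higher, Wnt5a (1.36), a secreted signal of these cells, and F3 (0.99), the tissue factor gene. The summed level of 9 general fibroblast genes overlapped in wild-type males (2420 to 2697 CPM in normal colon, 2075 to 2534 in tumours). It overlapped in knock-in males too (2237 to 3706 and 2612 to 4116), and was higher in wild-type female tumours (1152 to 1412 and 1709 to 2784). The part of either fibroblast list in the Pdgfra values was not tested.

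The potassium channel gene Kcnn3, which encodes SK3, showed the largest falls of the 7 genes in all 3 comparisons of tumour with normal colon. It was at 16.6, 8.09 and 13.7 CPM in wild-type male normal colon and at 1.58, 1.46 and 2.86 in tumours. The wild-type females were at 11.1, 11.1 and 14.6 CPM in normal colon and at 0.407, 1.52 and 1.09 in tumours, from 3, 13 and 10 counts. The difference was 6.27-fold in males (log2 fold change -2.65 with SE 0.36, adjusted p = 3.25e-05 by edgeR) and 11.8-fold in females (-3.56, SE 0.39, adjusted p = 1.16e-06), and the interaction between tumour and sex was -0.91 (SE 0.52, adjusted p = 0.472). In knock-in males the levels were 13.0, 13.2 and 10.5 CPM in normal colon and 5.17, 6.09 and 3.33 in tumours. This fall was 2.50-fold (log2 fold change -1.32 with SE 0.32, adjusted p = 0.00918 by edgeR). Knock-in female normal colon was highest, at 17.0, 21.6 and 13.9 CPM, with a mean of 17.5 ± 3.85 (SD, n = 3). The other normal groups averaged 12.8 ± 4.32, 12.3 ± 1.99 and 12.3 ± 1.48 CPM in wild-type males, wild-type females and knock-in males. Knock-in male tumours at 4.86 ± 1.41, wild-type male tumours at 1.96 ± 0.774 and wild-type female tumours at 1.01 ± 0.561 CPM followed, and the last 2 overlapped.

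P2RY1 is the purine receptor on the relay cells, and its gene moved least. P2ry1 was at 54.1, 34.3 and 47.0 CPM in wild-type male normal colon and at 42.3, 39.9 and 52.9 in tumours. The knock-in male libraries held 47.1, 37.0 and 46.9 CPM in normal colon and 37.6, 47.3 and 43.3 in tumours. Both pairs of groups overlapped, with log2 fold changes of 0.00 (95% interval -0.37 to 0.37) and -0.03 (-0.39 to 0.33). In wild-type females P2ry1 was at 42.4, 44.0 and 42.4 CPM in normal colon and at 21.9, 37.4 and 38.5 in tumours. All 3 tumour libraries lay below the normal ones, but the change of -0.39 (SE 0.19) did not pass the test (edgeR adjusted p = 0.0922) and was -0.18 (adjusted p = 0.425) without tumour replicate 1. With the covariate for the 3 libraries numbered 152 and above it was -0.69 and called (adjusted p = 0.0222). Knock-in female normal colon held 43.8, 45.2 and 42.0 CPM. The 7 group means lay between 32.6 ± 9.31 in wild-type female tumours and 45.1 ± 10.0 CPM in wild-type male normal colon (SD, n = 3 each), and the other 5 between 42.7 and 45 CPM. Each group in this order overlapped the next.

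**Figure D2:**
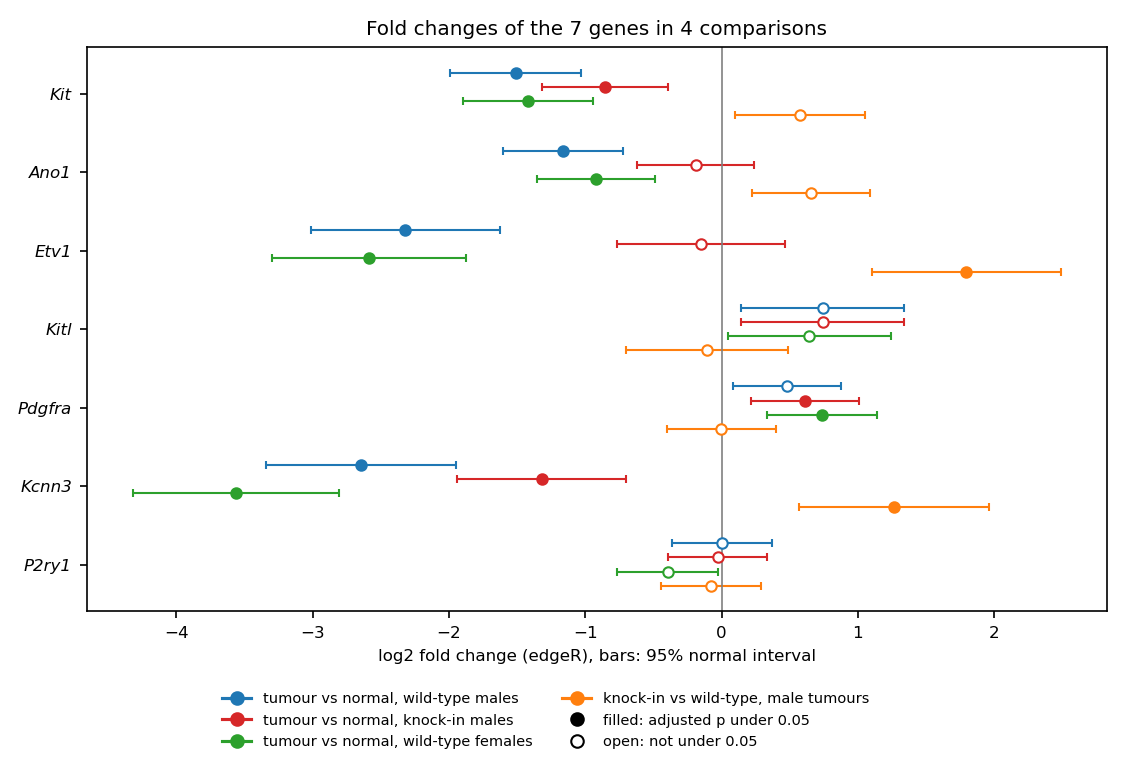
Log2 fold changes from edgeR (x axis) of the 7 genes (y axis) in 4 comparisons, with bars for the 95% interval from the standard error, filled points for an adjusted p under 0.05 and open points for the rest. Kcnn3 and Etv1 lie farthest to the left in wild-type tumours (-3.56 to -2.32), Pdgfra and Kitl lie to the right of 0 in all 3 tumour comparisons, and Etv1 of knock-in males (-0.15) spans 0.

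Tumours of knock-in and wild-type males were then compared directly. Of the 7 genes, 2 were called higher in the knock-in and 0 lower, beside 14.5% of all tested genes in either direction. Etv1 was 3.47-fold higher in the knock-in tumours (log2 fold change 1.79 with SE 0.35, adjusted p = 0.00674 by edgeR), which lay at 5.44 to 9.20 CPM against 1.75 to 2.49. This call held without each of the 6 libraries in turn (adjusted p from 0.00881 to 0.0383). Kcnn3 was 2.40-fold higher (1.26, SE 0.36, edgeR adjusted p = 0.0282), at 3.33 to 6.09 CPM against 1.46 to 2.86. The Kcnn3 call was lost without wild-type tumour replicate 1 or 2 (adjusted p = 0.127 and 0.0746), without knock-in tumour replicate 1 or 2 (0.0614 and 0.120), with the replicate block (0.0534), with only the compared groups (0.0763) and with a GC and length offset (0.0725). Ano1 missed the threshold at 0.66 (SE 0.22, edgeR adjusted p = 0.0537), but was called with a mean of at least 50 counts (0.0495), by DESeq2 (0.0359) and without knock-in tumour replicate 1 (0.83, adjusted p = 0.0207). Kit missed it at 0.58 (SE 0.24, edgeR adjusted p = 0.109) and was called without knock-in tumour replicate 3 (0.76, adjusted p = 0.0489). Kitl was at -0.11 (SE 0.30, adjusted p = 0.832), but at -0.91 (adjusted p = 0.00527) without knock-in tumour replicate 1, the library with 459.8 CPM. Pdgfra, with a log2 fold change of -0.00 and a 95% interval from -0.40 to 0.40, and P2ry1, at -0.08 (-0.45 to 0.29), showed no difference beyond the spread.

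Whether the tumour change itself differed between genotypes in males was tested as an interaction. Etv1 alone of the 7 was called, with a fall 2.17 log2 units smaller in the knock-in (SE 0.47, edgeR adjusted p = 0.0411), beside 1.51% of all tested genes. The call was lost in 8 of 12 fits that left out 1 library each: wild-type normal replicate 1 or 3, wild-type tumour replicate 1, 2 or 3, knock-in normal replicate 1 or 3, or knock-in tumour replicate 2. Over the 12 fits the adjusted p ran from 0.00867 to 0.132 and the estimate from 1.97 to 2.40. It was also lost with the replicate block (2.14, adjusted p = 0.0548) and in 4 other of 10 alternative settings. The estimates for Kcnn3 (1.33, SE 0.47, edgeR adjusted p = 0.103), Ano1 (0.97, SE 0.31, adjusted p = 0.0819) and Kit (0.66, SE 0.34, adjusted p = 0.228) pointed the same way and did not pass. Ano1 was called there by DESeq2 (0.0393) and without knock-in normal replicate 2 (1.15, adjusted p = 0.0227). Kitl (-0.00, SE 0.43), Pdgfra (0.13, SE 0.29) and P2ry1 (-0.03, SE 0.26) lay near 0. The tumour change of wild-type females was set against that of wild-type males in the same manner, with 0 of 7 genes called beside 1.12% of all genes, 0 at an unadjusted p under 0.05 and 0 by DESeq2.

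In normal colon 0 of the 7 genes were called between the genotypes or the sexes by edgeR's test. Between knock-in and wild-type males 0 of 7 were called, beside 0.0126% of all genes, with 0 at an unadjusted p under 0.05 and 0 by DESeq2. Between knock-in and wild-type females the same counts were 0, 0 and 0, beside 16.0% of all genes called. With only 7 genes, 0 calls cannot be told apart from such a share. Wild-type females and males differed in 15.9% of all genes and in 0 of the 7, with 1 at an unadjusted p under 0.05, Pdgfra, which DESeq2 called (adjusted p = 0.0303). Between knock-in females and males 0.584% of all genes and 0 of the 7 were called, with 1 at an unadjusted p under 0.05 (Ano1) and 0 by DESeq2. In wild-type tumours of females and males 0.860% of all genes and 0 of the 7 were called, with 2 at an unadjusted p under 0.05 (Kcnn3 and P2ry1) and 0 by DESeq2. The interaction of genotype and sex in normal colon called 2.54% of all genes and 0 of the 7, with 0 at an unadjusted p under 0.05 and 0 by DESeq2.

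Smooth muscle surrounds these cells in the gut wall, and the median fall of its genes exceeded that of every one of the 7. All 12 muscle genes were called lower in each of the 3 tumour comparisons, with median log2 fold changes of -3.91 in wild-type males, -4.04 in wild-type females and -2.49 in knock-in males. The muscle filament gene Des (-4.75 and -5.60) and the actin regulator gene Cnn1 (-4.54 and -5.02) led in wild-type males and females, and the actin gene Actg2 (-3.01) in knock-in males. Each gene was also taken relative to the mean log2 CPM of the muscle list in the same library. On this scale Kit differed between tumour and normal colon by 2.16 in wild-type males, 2.0 in wild-type females and 1.37 in knock-in males. Ano1 differed by 2.50, 2.48 and 2.09, Kitl by 4.39, 4.05 and 2.81, Pdgfra by 4.12, 4.17 and 2.87, and P2ry1 by 3.66, 2.98 and 2.27 in the same order. Kcnn3 stayed nearest to muscle, with differences of 1.04, -0.11 and 0.96, and Etv1 differed by 1.37, 0.73 and 2.17. The libraries overlapped for Kit in wild-type males, Etv1 in both wild-type sexes and Kcnn3 in wild-type females, and for no other of the 21 differences. Because the muscle mean itself fell, a gene of unchanged level also separates on this scale. P2ry1 in wild-type males did so, with a fitted log2 fold change of 0.00 and a difference of 3.66 here. The share of all genes that separate in this way was not computed, so these separations are not a result about the 7 genes. Exact two-sided permutation tests of these differences gave p of at least 0.1, the smallest that 3 against 3 libraries allow, so none can pass. Between knock-in and wild-type male tumours the muscle list had a median of 1.22 with 1 of 12 called higher, and relative to it Etv1 differed by 0.43 and Kcnn3 by -0.05, with overlapping libraries in both. In knock-in against wild-type female normal colon 6 of 12 muscle genes were called higher, with a median of 1.42, while the largest change among the 7 genes was 0.52 (Kcnn3). The part of muscle content in the values of the 7 genes was not tested.

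**Figure D3:**
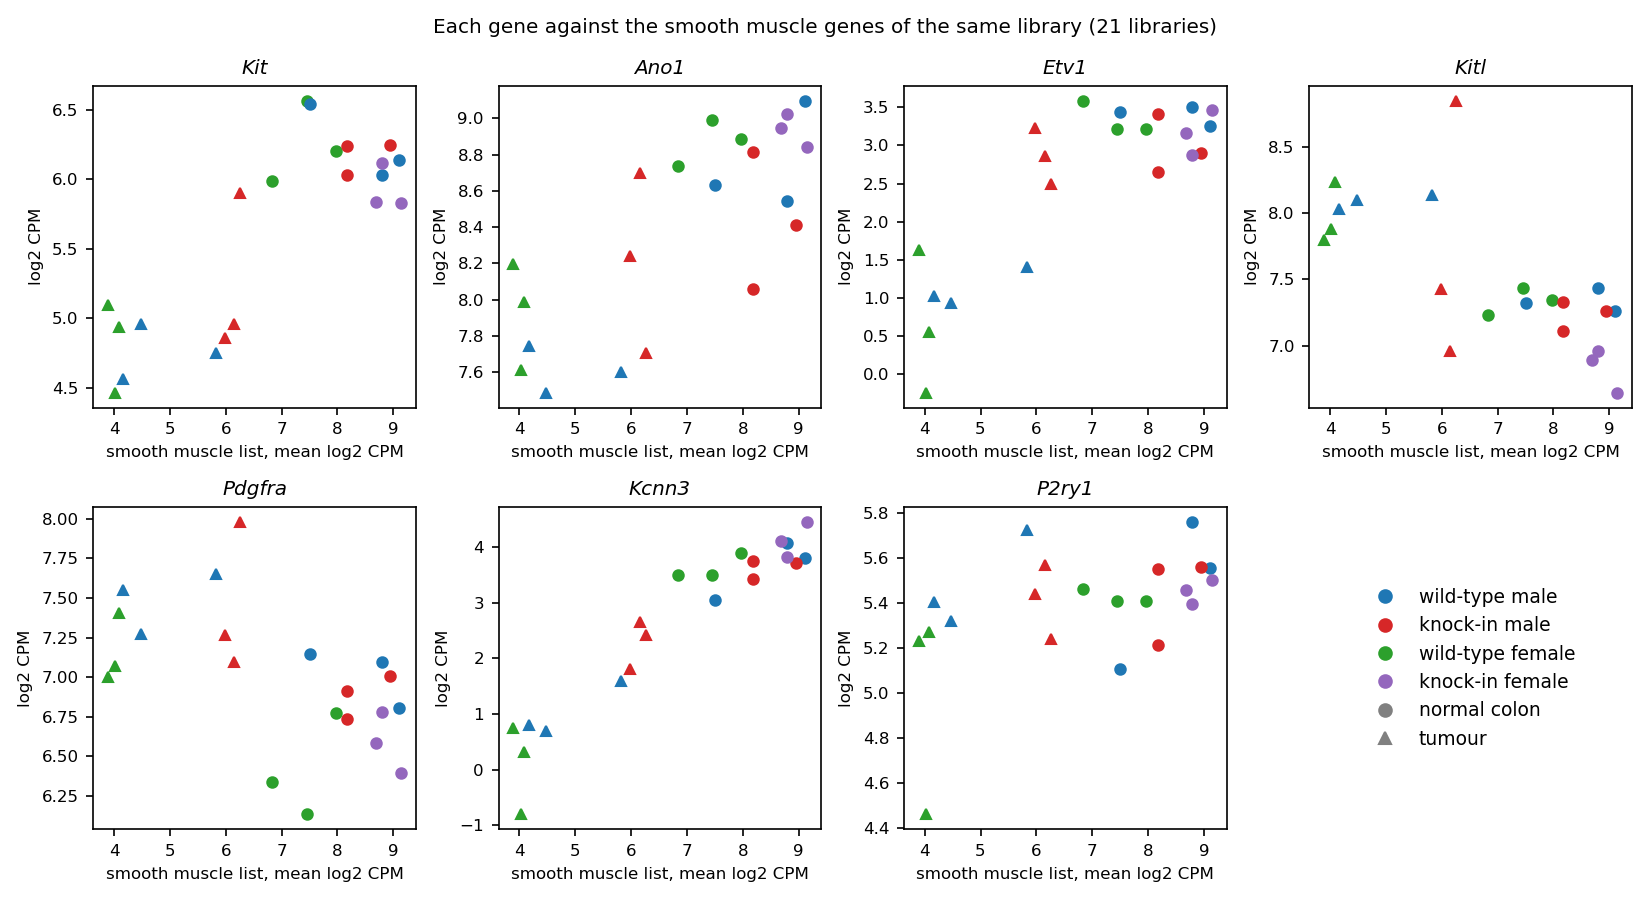
Log2 CPM of each of the 7 genes (y axis) against the mean log2 CPM of the 12 smooth muscle genes (x axis) in the same library, with 1 point per library, colours for genotype and sex, circles for normal colon and triangles for tumours. Kcnn3 climbs with the muscle mean over the whole range, while Etv1 of the 3 knock-in male tumours, at muscle means of 5.98 to 6.26, sits near the normal libraries and above the wild-type male tumour library at 5.83.

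Among genes of enteric nerves and glia, the other partners of these cells, several were called lower in tumours. The summed neuron level overlapped between tumour and normal colon in each comparison, while the summed glial level was lower in tumours without overlap. The sum of 12 neuron genes was 44.5 to 78.3 CPM in wild-type male normal colon and 31.3 to 60.8 in tumours. It was 53.8 to 70.0 against 49.8 to 69.9 in wild-type females, and 68.4 to 73.7 against 40.0 to 95.4 in knock-in males. Of 11 neuron genes tested, 8 were called lower and 0 higher in wild-type males, 8 lower and 1 higher in wild-type females and 5 lower and 0 higher in knock-in males. Of 6 glial genes, 4, 2 and 2 were called lower in the same order and 0 higher. Vip, the gene of an inhibitory neuropeptide, and Nos1, that of neuronal nitric oxide synthase, are named after their values were seen. Vip stood at 6.76 to 11.8 CPM in wild-type male normal colon, at 0 to 1.47 in the tumours, and at 1.42 to 8.92 in knock-in male tumours. Nos1 stood at 5.57 to 8.55, 0 to 0.829 and 0.947 to 16.6 CPM in the same groups. Both were called higher in the tumours of knock-in males, set against wild-type ones, 2 of 11 neuron genes, as were 2 of 6 glial genes, Cdh19 and Sox10, also named after their values were seen. Most of these tumour libraries held under 50 counts of each gene.

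General fibroblast genes split between groups: of 9 tested, 5 were called lower and 0 higher in wild-type males, 3 lower and 3 higher in wild-type females, and 2 lower and 0 higher in knock-in males. Of 6 epithelial genes, 5, 6 and 0 were called lower and 0 higher in the same order, with medians of -0.48, -0.83 and -0.12.

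The signalling partners of KIT were called in both directions in each tumour comparison. Beside the calls of each gene list stand the shares of all tested genes called in either direction. These shares were 35.7% in wild-type male, 49.1% in wild-type female and 20.4% in knock-in male tumours, and 14.5% between the male tumours of both genotypes. Of 15 adaptor, kinase and phosphatase genes, 1 was called higher and 2 lower in wild-type male tumours, 6 and 2 in wild-type females, and 2 and 1 in knock-in males, with medians of 0.05, 0.20 and -0.07. Sh2b2, an adaptor bound to KIT, rose in wild-type male (log2 fold change 1.85 with SE 0.36, adjusted p = 0.000806 by edgeR) and female tumours (2.30), and Pik3r1, a regulatory subunit of PI3 kinase, fell in males (-0.88). Fyn, a SRC family kinase, rose in females (1.08). In knock-in males the calls with the largest changes were Spred1 (0.52) and Sh2b3 (-0.47), both genes of inhibitors of growth factor signalling. Between knock-in and wild-type male tumours Sh2b2 was lower (-1.46) and Pik3r1 higher (0.67), 2 of 3 calls in the list.

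Some ligand genes for PDGFRA and its relatives rose in wild-type tumours. Among 10 genes of PDGF ligands and related receptors and ligands, 3 were called higher and 0 lower in wild-type males, 4 and 2 in wild-type females, and 1 and 2 in knock-in males, with medians of 0.26, 0.29 and -0.09. Pdgfb rose in wild-type male (1.53, SE 0.25, edgeR adjusted p = 0.000178) and female tumours (2.43), Pdgfc in males (1.17), and Csf1, the macrophage growth factor gene, in females (2.14). Pdgfa, which encodes the ligand most selective for PDGFRA, was looked at after its value was seen and averaged 43.3 ± 3.52 CPM in wild-type male normal colon and 44.8 ± 4.55 in tumours (SD, n = 3 each). In knock-in males Flt3 (-1.55) and its ligand gene Flt3l (-1.27) fell. Csf1 (-1.08) and Pdgfb (-0.75) were lower in the tumours of knock-in males, set against wild-type ones.

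Channels and calcium handling genes of the pacemaker split. Of 14 genes, 5 were called lower in each tumour comparison, with 0, 1 and 1 called higher in wild-type males, wild-type females and knock-in males and medians of -0.27, -0.15 and -0.33. The calcium release channel gene Ryr3 (-3.22 and -3.47) and Thbs4, which encodes an extracellular matrix protein (-3.14 and -3.01), fell most in wild-type males and females. In knock-in males Cacna1h, a T-type calcium channel gene, fell most (-1.86), followed by Ryr3 (-1.60). Between the male tumour groups 5 were higher and 2 lower in the knock-in, led by Ryr3 (1.82) and Thbs4 (1.55).

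Of 11 tested genes that receive inhibitory transmission, 4, 5 and 4 were called lower and 0 higher in tumours of wild-type males, wild-type females and knock-in males, with medians of -0.74, -0.29 and -0.20. Adcyap1r1, the receptor for the neuropeptide PACAP on the relay cells, fell (log2 fold changes of -3.45, -3.75 and -1.82), and so did Prkg1, the cyclic GMP-dependent kinase (-2.71, -2.88 and -1.05). Prkg1 (1.49) and Vipr2 (1.24), a receptor for VIP, were higher in the knock-in tumours of males than in the wild-type ones, among 3 called higher. Kcnn2, a close relative of Kcnn3, stayed below the count filter, and Gucy1a1 and Gucy1b1 were not analysed here. Of the relatives of Ano1, 7 anoctamins were tested: 1 was called higher and 3 lower in wild-type males, 2 and 3 in wild-type females, and 0 and 3 in knock-in males. Ano7 fell in all 3 (-1.33, -1.88 and -0.97). Etv5, a PEA3 relative of Etv1, went the opposite way from it, up by 2.0 in wild-type male (SE 0.65, edgeR adjusted p = 0.0252) and by 3.30 in wild-type female tumours (SE 0.69, adjusted p = 0.00105), and Etv4 was called in neither. In knock-in males neither was called, and Etv5 spread from 37.2 to 250 CPM over the 3 tumours.

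**Figure D4:**
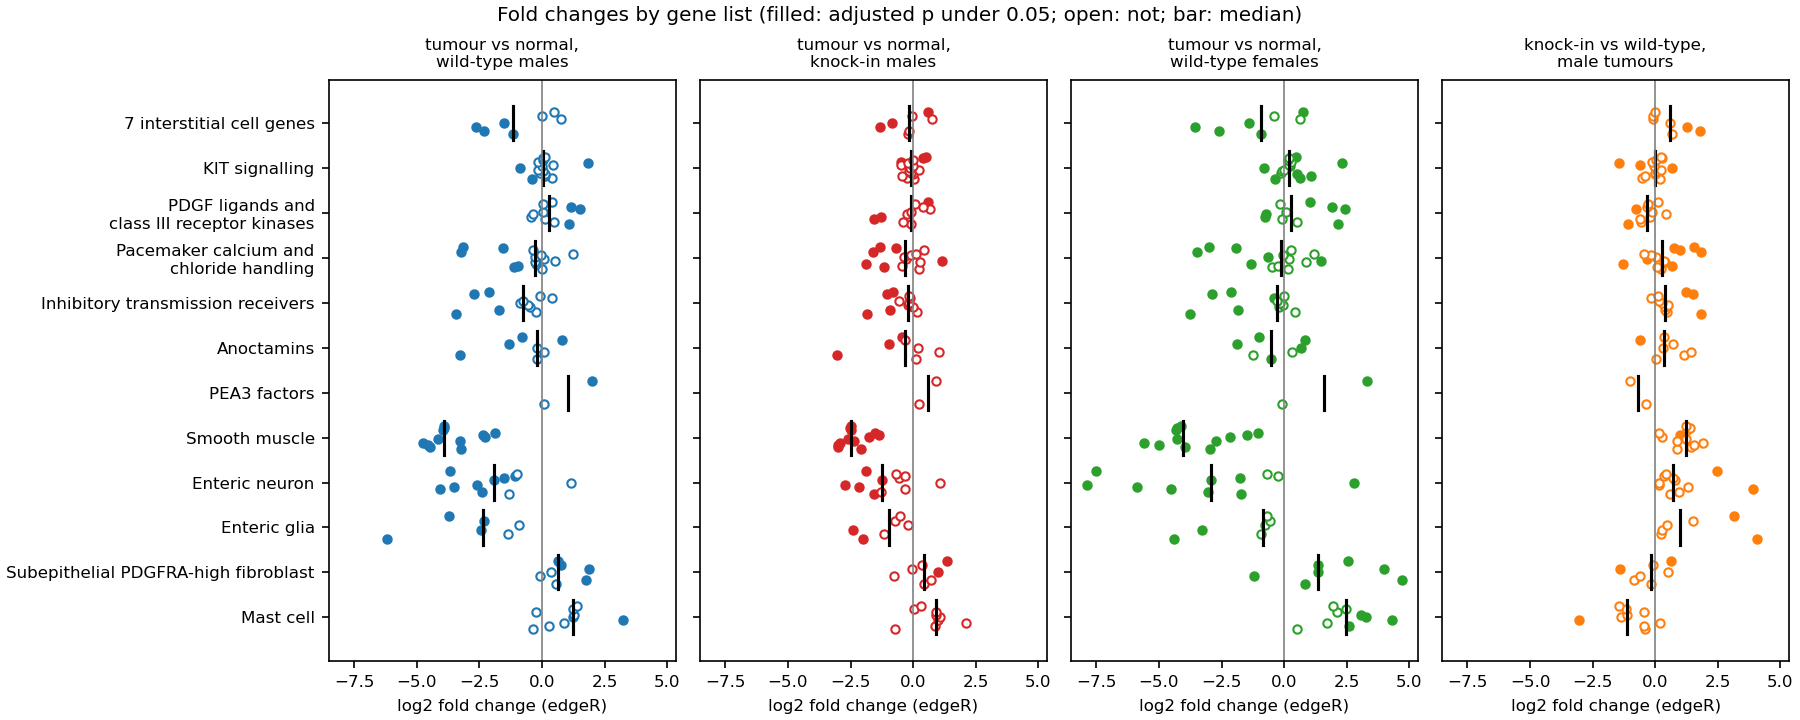
Log2 fold changes from edgeR (x axis) of the 7 genes and of every tested gene in 11 lists (y axis) for 4 comparisons (panels), with filled points for an adjusted p under 0.05, open points for the rest and a black bar at the median of the list. The 12 smooth muscle genes lie left of 0 in all 3 tumour panels (medians -3.91, -2.49 and -4.04), the 15 KIT signalling genes centre near 0, and the 7 interstitial cell genes spread to both sides.

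Likeness of the levels was described by Pearson's r of log2 CPM over the 21 libraries, which fall into tumours and normal colon, so r reflects largely that split. It is given as a description, beside r of the deviations from group means. Etv1 and Kcnn3 were most alike of the 21 pairs of the 7 genes (r = 0.92, within groups 0.58). Kit, Ano1, Etv1 and Kcnn3 were all positively related (0.72 to 0.92), but within groups their r ran from -0.15 (Kit and Ano1) to 0.58. Kitl and Pdgfra were related to each other (0.77, within groups 0.73) and inversely to those 4 (-0.79 to -0.46). Within groups their r with those 4 ran from -0.54 (Kitl and Ano1) to 0.70 (Kitl and Kit). Kit and Kitl, receptor and ligand, had r = -0.46 over the libraries but 0.70 within groups, where knock-in male tumour replicate 1 was high for both. That library was high for Pdgfra too, at 252 CPM, and so enters the value of Kitl with Pdgfra. Kcnn3 and P2ry1, the pair of the purine pathway, had r = 0.57, and 0.78 within groups. There wild-type female tumour replicate 1 was low for both, with 3 counts of Kcnn3 and 21.9 CPM of P2ry1.

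Among 11849 other genes with enough counts, those most like Kcnn3 were Ryr2, Pgm5 and Fam129a (r = 0.98, 0.98 and 0.97), and 407 genes exceeded 0.9. With the muscle list mean Kcnn3 had r = 0.95, and 0.57 within groups. Kit was most like Atoh1, the transcription factor of secretory epithelial cells (r = 0.95, within groups 0.69), Ramp1 (0.94, 0.72) and Galnt10 (0.94, 0.70), whereas its r with the muscle mean was 0.82, and -0.04 within groups. Ano1 was most like Atp5a1 (0.96), Atraid (0.95) and Lclat1 (0.95), and Etv1 most like Gcg, the proglucagon gene of enteroendocrine cells (0.94, within groups 0.71), Akr1c14 (0.94) and Fbp2 (0.93). For Kitl they were Fgd6, Scp2 and Ddhd2 (each 0.90), for Pdgfra Tspan12, Palmd and Ahr (0.90, 0.90 and 0.89), and for P2ry1 the limb and hindgut patterning genes Hoxd9 (0.79), Evx2 (0.79) and Hoxd11 (0.77). P2ry1 had 0 genes above 0.9.

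**Figure D5:**
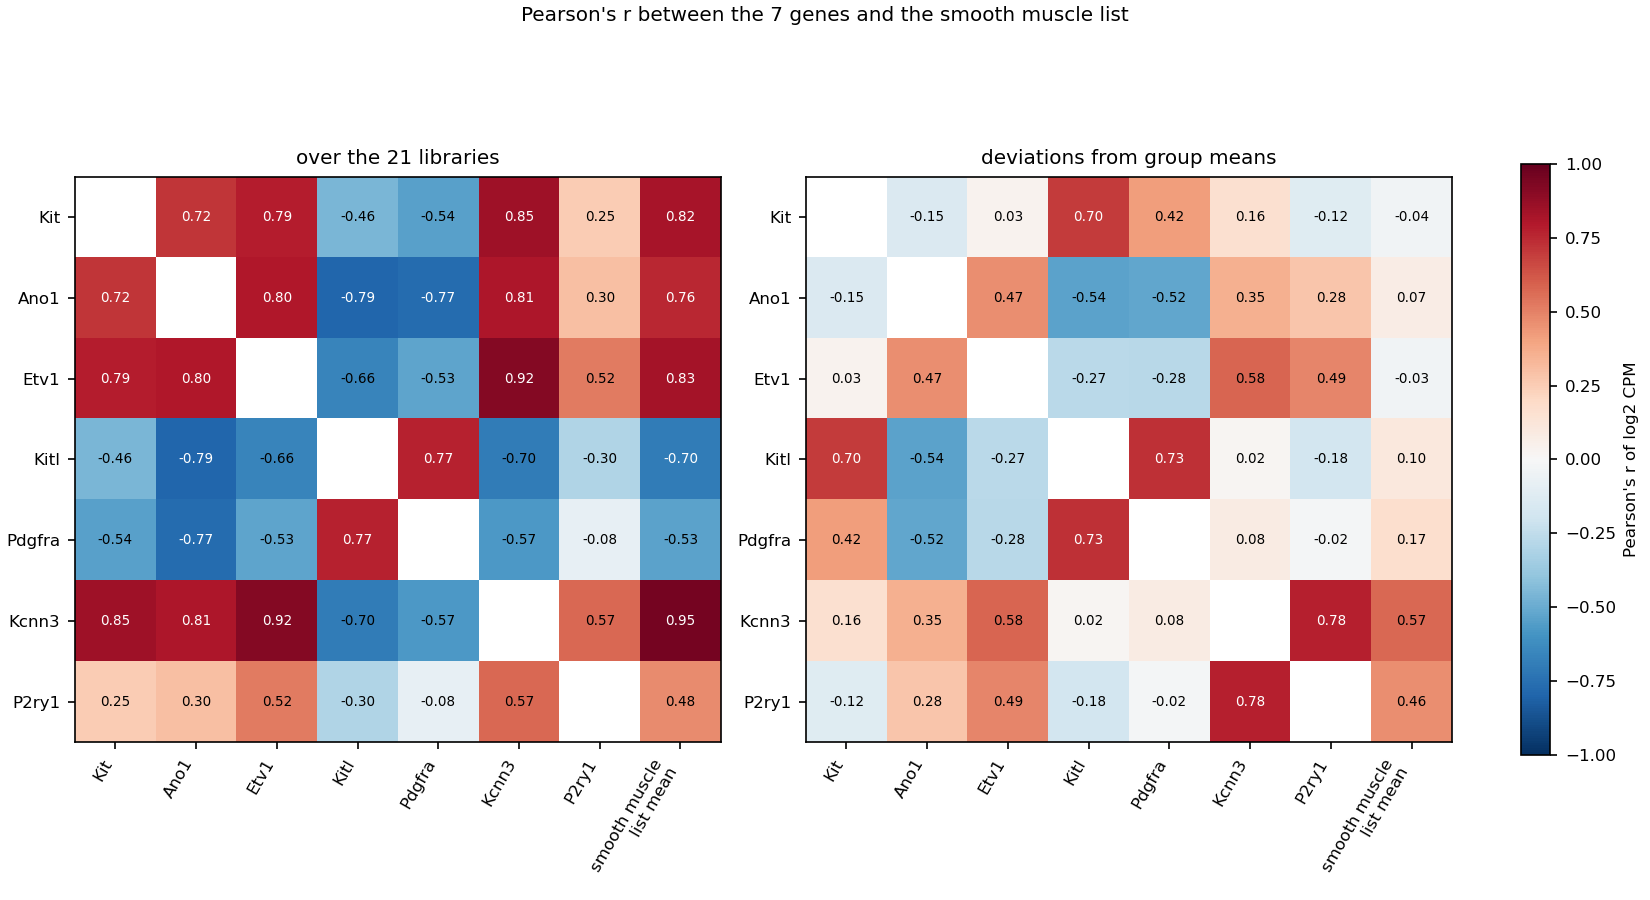
Pearson's r of log2 CPM (colour scale from -1 to 1, with the value in each cell) among the 7 genes and with the mean of the smooth muscle list, over the 21 libraries on the left and for deviations from group means on the right. The block of Kit, Ano1, Etv1 and Kcnn3 on the left (0.72 to 0.92) runs from -0.15 to 0.58 on the right. There Kcnn3 and P2ry1 (0.78), Kitl and Pdgfra (0.73) and Kit and Kitl (0.70) are highest.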

How the data were processed

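RNA-seq of mouse colon was deposited as a table of raw gene counts, which the authors made with Trimmomatic, HISAT2 and featureCounts on mm10, per the submitters' processing notes, which also name DESeq2. Versions, the annotation and the strand setting are not given in the sources used here. Columns were matched to samples by title. A column name that 2 knock-in female libraries share makes these unnumbered replicates.

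Genes with enough counts by edgeR's filter (filterByExpr) were kept, 15936 of 24062. One quasi-likelihood model over all 21 libraries with a term per group (edgeR 4.0.16, limma 3.58.1, R 4.3.3) gave 9 pairwise comparisons and 3 interactions, with TMM scaling and Benjamini-Hochberg adjustment over all tested genes. The SE is the log2 fold change divided by the square root of its F statistic. Log2 CPM used a prior count of 2. The scripts were tested on simulated data. Alternatives were DESeq2 1.42.0, its size factors, library totals, other filters, only the compared groups, a replicate block, left-out libraries, a covariate for the 3 libraries numbered 152 and above, and, added after the data were seen, a GC and length offset and the 18 numbered libraries without the block. Figures were drawn with matplotlib 3.10.9 in Python 3.11.15.

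The members and the gene lists were chosen with earlier results of these data known. From each list the text names at most the 2 called genes with the largest change and a mean of at least 50 counts in a group, and for each of the 7 genes the 3 most alike. Exceptions are marked. Same-numbered tumour and normal libraries of wild-type males deviated together (r of 0.17, 0.17 and 0.21 over genes). Larger r arose across genotype or sex. It was 0.46 for replicate 1 of knock-in and wild-type male normal colon, and 0.34 for replicate 1 of knock-in female and male normal colon. Such values therefore do not show that same-numbered libraries are pairs. The replicate block kept the 4 calls in wild-type male tumours. Apart from knock-in female against male normal colon, not every pair of the other comparisons exceeded 0.1.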

Additional observations from a re-analysis of the deposited data

Results flagged for a closer look

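The tumour change of Etv1 differed between genotypes in males by a test of that difference: the interaction of tumour and genotype was 2.17 on the log2 scale (SE 0.47, edgeR adjusted p = 0.0411). Etv1 was 5.0-fold lower in wild-type male tumours, while its log2 fold change was -0.15 (adjusted p = 0.766) in knock-in males. Over 10 alternative settings the adjusted p ran from 0.00130 to 0.111. The interaction was called in only 5 of these settings, and in only 4 of the 12 fits that left out 1 library each.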

How the results depend on the processing

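Of 1428 values of single genes under alternatives, 1295 kept direction and side of the threshold, 32 lost and 24 gained a call, and 77 changed sign, none of them called in either fit. The calls of Kit, Ano1, Etv1 and Kcnn3 in wild-type male and female tumours, and of Pdgfra in the females, held in every fit. In knock-in males 1 of the 7 genes was called with only the compared groups (3 in the full fit). Between knock-in and wild-type male tumours 1 was called in each of 3 settings: the replicate block, the compared groups alone and the GC and length offset (2 in the full fit), and 3 with a mean of at least 50 counts and by DESeq2, Ano1 being added. The interaction of tumour and genotype had 2 calls by DESeq2, and 0 with the replicate block, with the compared groups alone, with the 18 numbered libraries without a block, with the covariate for libraries numbered 152 and above and with the GC and length offset. Between wild-type normal females and males 1 gene, Pdgfra, was called with a mean of at least 50 counts, with library totals and by DESeq2, and between knock-in and wild-type normal females 1, Kitl, with only the compared groups. The cause of these changes was not tested. Leaving out 1 library gave 4 to 4 calls in wild-type males, 2 to 3 in knock-in males, 5 to 5 in wild-type females, 1 to 3 between male tumours, 0 to 1 between wild-type normal females and males, 0 to 2 for the interaction with genotype and 0 elsewhere. Over all genes, calls in knock-in males fell from 3246 to 724 with only the compared groups, and between male tumours from 2315 to 1438, or 999 with the GC and length offset. Calls for the interaction with genotype ran from 240 to 1326 by DESeq2, 408 with a mean of at least 50 counts, 95 without a filter, 2 with the covariate, 1 with the compared groups alone, and 0 with the GC and length offset, with the replicate block and with the same 18 libraries without a block. With only the compared groups the share of higher calls moved from 51% to 30.5% in knock-in males and from 64% to 51.8% between male tumours, and with library totals from 51% to 62.1% in wild-type females, where the median of all genes shifted to 0.15. The block could not be fitted for knock-in female normal colon, where 2 libraries carry no number. The GC and length offset covered 95.3% of the tested genes. The lowest values, 3 and 5 counts of Kcnn3 and Etv1 in 1 female tumour library, limit the size of those falls.

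The log2 values that changed sign follow, with the full fit in parentheses. P2ry1 in wild-type male tumours (0.00088) ran from -0.17 to 0.13 over left-out libraries and was -0.0011 without a filter, -0.0013 with DESeq2 size factors, -0.00050 by DESeq2, -0.013 with the compared groups alone, -0.023 with the replicate block and -0.013 with the 18 numbered libraries. Kitl in knock-in male tumours (0.74) ran from -0.070 to 1.03 over left-out libraries. Etv1 in knock-in male tumours (-0.15) ran from -0.35 to 0.059 over left-out libraries. P2ry1 in knock-in male tumours (-0.029) ran from -0.18 to 0.025 over left-out libraries and was 0.0062 with library totals. Kitl between the male tumours of both genotypes (-0.11) ran from -0.91 to 0.19 over left-out libraries. Pdgfra between the male tumours of both genotypes (-0.0015) ran from -0.36 to 0.14 over left-out libraries and was 0.0049 with library totals and 0.027 with the covariate. P2ry1 between the male tumours of both genotypes (-0.080) ran from -0.18 to 0.057 over left-out libraries. Kit between normal males of both genotypes (-0.079) ran from -0.20 to 0.087 over left-out libraries. Kcnn3 between normal males of both genotypes (-0.065) ran from -0.31 to 0.16 over left-out libraries. P2ry1 between normal males of both genotypes (-0.050) ran from -0.22 to 0.092 over left-out libraries. Ano1 between normal females of both genotypes (0.067) was -0.17 with the GC and length offset. P2ry1 between normal females of both genotypes (0.023) ran from -0.00028 to 0.059 over left-out libraries. Kit between the sexes in wild-type tumours (0.11) ran from -0.029 to 0.27 over left-out libraries. Kitl between the sexes in wild-type tumours (-0.10) was 0.12 with the covariate. Etv1 between the sexes in wild-type tumours (-0.33) ran from -1.03 to 0.019 over left-out libraries. Kit between the sexes in wild-type normal colon (0.020) ran from -0.16 to 0.18 over left-out libraries and was -0.061 with library totals, -0.0042 with the replicate block and -0.0017 with the 18 numbered libraries. Kitl between the sexes in wild-type normal colon (-0.0029) ran from -0.054 to 0.047 over left-out libraries. Ano1 between the sexes in wild-type normal colon (0.095) ran from -0.031 to 0.28 over left-out libraries. Etv1 between the sexes in wild-type normal colon (-0.059) ran from -0.19 to 0.010 over left-out libraries. Kcnn3 between the sexes in wild-type normal colon (-0.071) ran from -0.32 to 0.15 over left-out libraries. P2ry1 between the sexes in wild-type normal colon (-0.072) ran from -0.25 to 0.061 over left-out libraries. Etv1 between the sexes in knock-in normal colon (0.16) ran from -0.0031 to 0.41 over left-out libraries. P2ry1 between the sexes in knock-in normal colon (0.00052) ran from -0.11 to 0.058 over left-out libraries and was -0.0042 with the compared groups alone and -0.038 with the GC and length offset. Kitl for tumour by genotype (-0.0017) ran from -0.80 to 0.31 over left-out libraries and was 0.0037 with library totals, 0.0072 with the compared groups alone and 0.073 with the covariate. Pdgfra for tumour by genotype (0.13) ran from -0.21 to 0.29 over left-out libraries. P2ry1 for tumour by genotype (-0.030) ran from -0.21 to 0.11 over left-out libraries. Kit for tumour by sex (0.090) ran from -0.081 to 0.27 over left-out libraries and was -0.030 with the GC and length offset. Kitl for tumour by sex (-0.099) was 0.0064 with library totals and 0.12 with the covariate. Etv1 for tumour by sex (-0.27) ran from -0.97 to 0.080 over left-out libraries. P2ry1 for genotype by sex (0.073) ran from -0.061 to 0.25 over left-out libraries.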

Other observations

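Because Atoh1 was the gene most like Kit, 10 genes of secretory epithelial cells (Atoh1, Spdef, Muc2, Agr2, Reg4, Spink4, Clca1, Fcgbp, Zg16 and Tff3) were summarised after these values were seen, so the numbers are a description. Kit had r = 0.89 with the mean log2 CPM of this list over the 21 libraries and 0.67 within groups, beside 0.82 and -0.04 with the smooth muscle list. Atoh1 prompted the list and is part of it, so a high r for Kit was favoured by the choice. Over the libraries Etv1, Kcnn3 and Ano1 had 0.74, 0.71 and 0.68 with the secretory list, and 0.29, 0.19 and 0.09 within groups. P2ry1, Kitl and Pdgfra had 0.16, -0.43 and -0.60 over the libraries. Atoh1 itself stood at 34.0 to 70.0 CPM in wild-type male normal colon and 6.40 to 12.0 in tumours, at 57.6 to 64.3 and 14.9 to 33.4 in knock-in males, and at 45.7 to 81.6 and 5.43 to 18.1 in wild-type females. Knock-in female normal colon held 38.6 to 44.1 CPM. The part of secretory cells in the Kit values was not tested.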
